A study of Mus musculus with 4 samples.

Results

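The genes described here encode the signalling chain that runs from DAP12 and other ITAM adaptors into myeloid cells. They are 36 genes for kinases, phosphatases, scaffolds and the PI3K, phospholipase C and CARD9 branches, taken from a list of names, which was drawn up with earlier results of these data known. All 36 passed the filter on low counts and were tested, among 14239 genes tested of 17476 in the count table. The study compared wild-type (WT) and Trem2 mutant myeloid-derived suppressor cells (MDSCs), myeloid cells of the granulocyte and monocyte lines that can dampen T cell responses. Bone marrow of C57BL/6 mice or of TREM2mut mice, whose strain is also labelled C57BL/6, was differentiated in culture and injected into NRG males, an immunodeficient mouse strain without lymphocytes. The recipients were 6 weeks old when challenged under the skin with the mouse prostate cancer line TRAMP-C1, and received the cells 4 weeks later. Tumours, taken 6 h after the injection, were digested for 45 minutes and cells carrying CD45, CD11B and GR1 were taken by sorting, a gate that did not separate injected cells from those of the recipient. Each genotype had 2 libraries, called WT 1, WT 2, Trem2 mutant 1 and Trem2 mutant 3 after their columns. No source used here says what kind of mutation Trem2 carried, or whether libraries came from separate mice, so p-values reflect only how far these libraries spread, and that spread may be technical.

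An ITAM is a short cytoplasmic motif with a pair of tyrosines. When a receptor such as TREM2 is engaged, Src family kinases phosphorylate the ITAM of its partner DAP12 (gene Tyrobp), and the kinase SYK docks there and is activated. SYK then works through scaffolds to drive PLC gamma (calcium), PI3K and AKT (survival), VAV (actin), Ras and CARD9 (NF-kB), while phosphatases and ubiquitin ligases hold the chain back. In myeloid cells the same chain serves Fc receptors, integrins and C-type lectins, so it does not belong to TREM2 alone.

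Transcripts of the chain differed little between the genotypes. Of the 36 genes, 2 were higher in the mutant libraries (Lcp2 and Bcl10) and 1 was lower (Dok1) at an adjusted p under 0.05 in edgeR's quasi-likelihood test. That is 8.33% of the genes, beside 13.2% of all genes tested, with 9.55% of all genes called higher and 3.6% called lower. The log2 fold changes ran from −0.70 to 0.36, with a median of 0.11 beside −0.02 over all genes tested. The 95% interval of every one of the 36 lay within a 2-fold change in either direction, and that of 34 lay within 1.5-fold, the exceptions being Dok1 and Dok3. Among the 8597 genes tested with a mean level in the same range as the chain, those shares were 90.8% and 63.0%, and 17.5% were called. That range ran from 9.15 to 1242 CPM, and genes were not matched to the chain in level within it. Another 12 genes, 15 of the 36 in all, had an unadjusted p under 0.05 in the edgeR test. Of these 15, 12 were higher in the mutant and 3 lower. Over all 14239 genes 30.1% had such a p, 2494 of them higher and 1789 lower. In the same range of level, 3144 of the 8597 genes did. DESeq2 called Lcp2 and Dok1 (8.86% of all genes called), and limma-voom called all 3 (12.6%). Leaving out 1 library moved the calls in the chain and over all genes together: 0 in the chain and 3.86% of all genes without WT 1, 1 and 5.66% without WT 2, 4 and 14% without Trem2 mutant 1, and 7 and 20.4% without Trem2 mutant 3. When libraries were scaled by their totals and nothing else, which set the median of all genes at −0.40, 0 of the 36 genes were higher and 9 were lower, beside 4.56% and 30.7% of all genes. The median of the chain then was −0.26, again 0.14 above that of all genes.

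**Figure D1:**
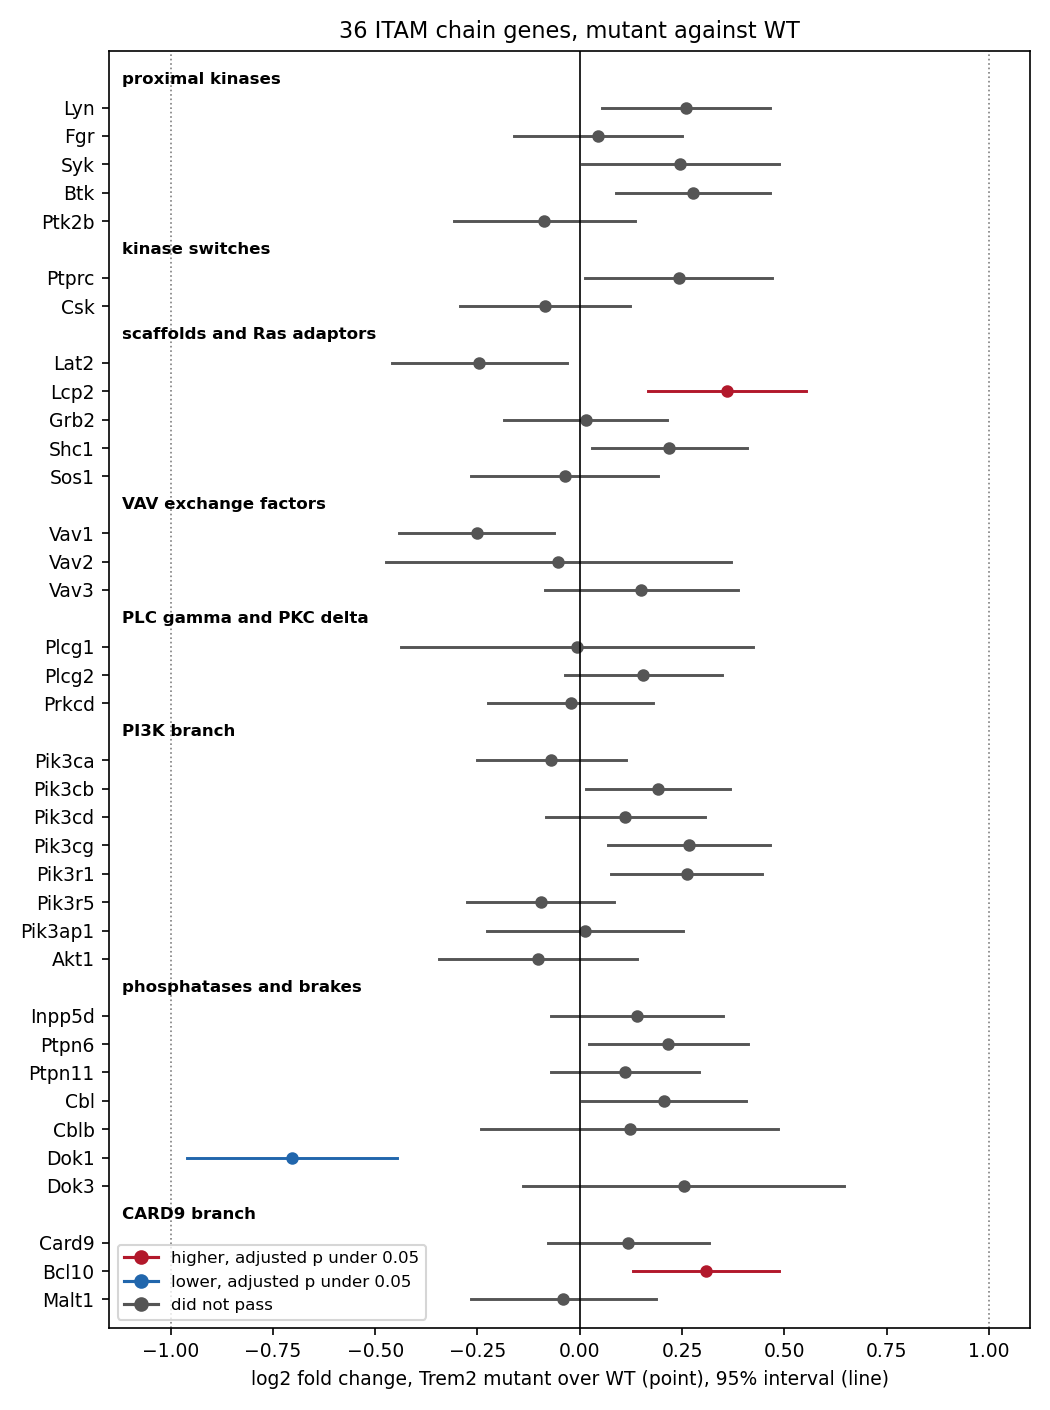
Log2 fold change of each of the 36 genes, Trem2 mutant over WT (x axis), with its 95% interval as a line, genes grouped by role on the y axis. Dotted lines mark a 2-fold change; Lcp2 (0.36) and Bcl10 (0.31) are called higher, Dok1 (−0.70) lower, and every interval ends inside the dotted lines.

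Some facts of the series bear on these values. Library totals ran from 8037733 to 10306674 reads. One ribosomal RNA-like locus, Gm42418, took 13.9% of the reads of Trem2 mutant 1 and 0.258% to 1.04% of the others. Trem2 itself, the mutated gene, was at 44.2, 52.2, 22.9 and 20.96 CPM in WT 1, WT 2, Trem2 mutant 1 and Trem2 mutant 3. CPM are reads scaled to a common library size, here corrected by TMM. Trem2 was 2.20-fold lower (adjusted p = 0.00157). The genes of the GR1 antigen, on which the cells were sorted, rose most among those of the gate. Ly6g was at 5.66, 7.22, 144 and 123 CPM (20.6-fold higher, adjusted p = 8.45e-06) and Ly6c2 at 26.9, 24.8, 378 and 282 CPM (12.8-fold higher, adjusted p = 2.35e-05), in the same order of libraries. Itgam (CD11b) was 1.52-fold higher (adjusted p = 0.00429). This call was kept in 12 of 14 alternative analyses, and the loss without WT 1 was not the sole one.

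Markers of granulocytes moved with genotype far more than the chain did. Of 10 granule genes of immature granulocytes 8 rose and 0 fell, their summed level going from 2242 and 2430.2 CPM in the WT libraries to 10832 and 14766 CPM in the mutant libraries. Of 10 mature neutrophil markers 8 rose and 0 fell, with sums of 6492 and 7027 against 20308 and 22016 CPM. Monocyte markers (6 of 8 rose), macrophage markers (4 of 8) and eosinophil markers (3 of 3 tested) were also called higher, and so were 3 of 5 tested fibroblast markers. The 4 macrophage markers called higher were C1qa, C1qb, C1qc and Apoe. The 2 most abundant macrophage markers were lower in both mutant libraries without passing, Csf1r at 846, 864, 704 and 701 CPM (log2 fold change −0.28, adjusted p = 0.0784) and Adgre1 at 372, 386, 336 and 323 CPM (−0.20, adjusted p = 0.150), as was Cd68 (−0.31, adjusted p = 0.0864). In other lists the 2 most abundant markers were Mmp8 (log2 fold change 0.42) and Ltf (6.63) for granules, S100a8 (2.41) and S100a9 (2.75) for neutrophils, and Col1a1 (1.51) and Col1a2 (1.77) for fibroblasts. In the smaller lists 1 of 6 B and plasma cell markers fell (Jchain), 1 of 2 tested epithelial markers fell (Cdh1) and 1 of 2 tested endothelial markers rose (Pecam1). The rest of the epithelial list was near the floor or absent. Epcam (3 to 11 reads per library) and Krt8 (0 to 5) were not tested, Krt18 had 18 to 24 reads, and Krt5 is not in the table. Cdh1 had 689 to 1447 reads. Of the endothelial list Cdh5 (1 to 7 reads) was not tested and Kdr had 15 to 29 reads. The calls of Mmp8, Pecam1 and the eosinophil marker Siglecf were kept in 7, 9 and 11 of 14 alternative analyses. Those of Ltf, S100a8, S100a9, Col1a1, Col1a2 and Cdh1 were kept in all 14. The macrophage sums overlapped, at 1737 and 1839.5 CPM in WT and 1593 and 1835 CPM in the mutant libraries. Lymphocyte markers were near the floor: B and plasma cell markers summed to 5.39 to 11.5 CPM, and of the T and NK cell markers Cd3e, Cd3g, Cd8a and Ncr1 are not in the table. In bulk RNA, more cells of a type and more transcript per cell cannot be told apart, and the part these markers play in the values below was not tested.

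**Figure D2:**
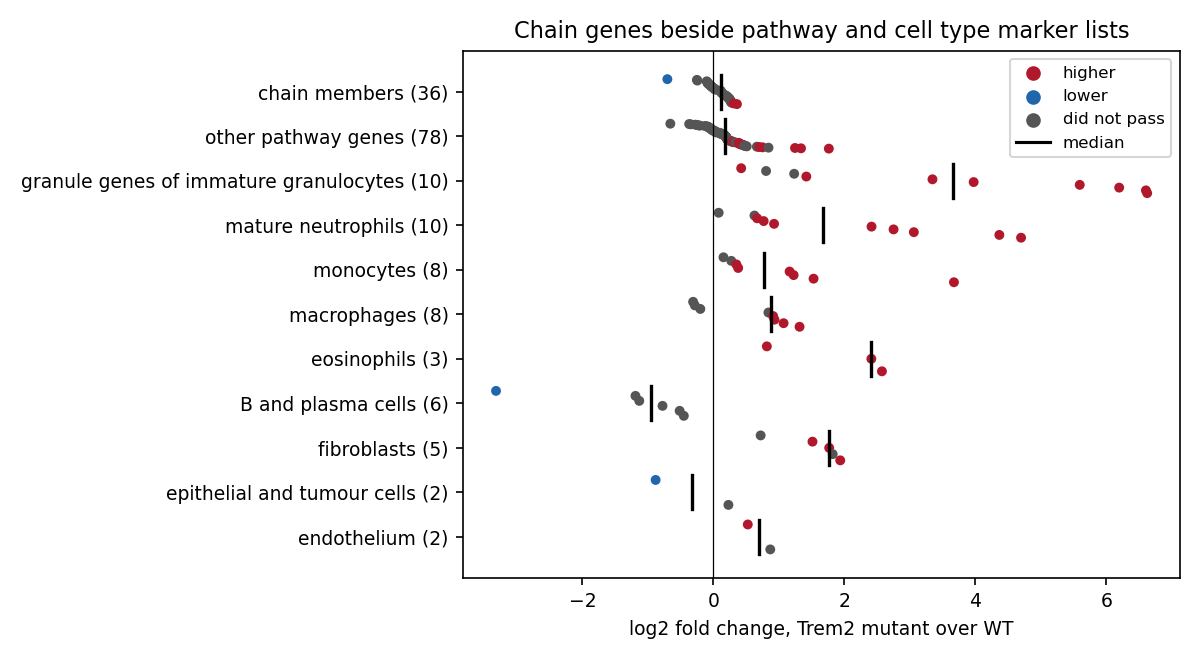
Log2 fold change, Trem2 mutant over WT (x axis), of every tested gene of the chain, of other pathway genes and of each cell type marker list (y axis, number tested in brackets), with the list median as a bar. The chain lies between −0.70 and 0.36, while granule genes of immature granulocytes reach 6.63.

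The receptors feed the chain through adaptors. Tyrobp (DAP12) was at 702, 671, 816 and 787 CPM in WT 1, WT 2, Trem2 mutant 1 and Trem2 mutant 3, an order kept for all sets of 4 values below. Both mutant libraries lay above both WT libraries, but the difference did not pass (log2 fold change 0.22, 95% interval 0.01 to 0.44, adjusted p = 0.148). Fcer1g, the adaptor of Fc and C-type lectin receptors, gave a log2 fold change of 0.20 and Hcst (DAP10, which recruits PI3K) 0.21, neither past the threshold. Per kilobase of exon, Tyrobp stood at 1006 to 1223 CPM and Trem2 at 4.24 to 10.6 CPM. The per-length ratio of adaptor to receptor transcript averaged 107 ± 15.9 over the WT pair and 272 ± 10.04 over the mutant pair (± SD, n = 2). Its size rests on the exon lengths used, 667 bases for Tyrobp and 4946 for Trem2. The lower Trem2 level given above enters the difference between the pairs. The ratio of Tyrobp to Syk on the same scale was 11.6 ± 1.38 and 11.3 ± 0.0460, with overlapping groups.

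The kinases that start the chain gave 0 calls among 5 genes in edgeR, DESeq2 and limma-voom, although 3 had an unadjusted p under 0.05. Lyn, a Src family kinase with both activating and inhibitory duties, was at 334, 366, 427 and 411 CPM. Both mutant libraries were above both WT libraries (log2 fold change 0.26, 95% interval 0.06 to 0.46, adjusted p = 0.0952). Its relative Fgr was at 546, 533, 537 and 575 CPM, with overlapping groups (log2 fold change 0.04, 95% interval −0.16 to 0.25, adjusted p = 0.775). Syk, the kinase that binds the phosphorylated ITAM, was at 784, 888, 1012 and 971 CPM. The groups did not overlap, WT 1 being the lowest and Trem2 mutant 1 the highest (log2 fold change 0.25, 95% interval 0.01 to 0.49, adjusted p = 0.158). Btk, a Tec family kinase that activates PLC gamma, was at 86.9, 81.6, 100.03 and 104 CPM, again without overlap (log2 fold change 0.28, 95% interval 0.09 to 0.46, adjusted p = 0.0630). Leaving out Trem2 mutant 1 brought Btk past the threshold (0.31, adjusted p = 0.0377), and leaving out Trem2 mutant 3 did so for Lyn (0.30, adjusted p = 0.0424). Ptk2b (PYK2, a calcium- and integrin-linked kinase) overlapped between the groups at 394, 427, 364 and 408 CPM (log2 fold change −0.09, 95% interval −0.31 to 0.14, adjusted p = 0.583).

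Neither switch that sets the Src kinases passed in any of the 3 tools, and 1 had an unadjusted p under 0.05. Ptprc encodes CD45, the phosphatase that opens Src kinases and also the antigen used to sort the cells, so its level was part of the selection. It was at 1114, 1162, 1328 and 1363 CPM, higher in both mutant libraries (log2 fold change 0.24, 95% interval 0.01 to 0.47, adjusted p = 0.147). Csk, which closes Src kinases, overlapped between the genotypes at 216, 193, 199 and 187 CPM (log2 fold change −0.08, 95% interval −0.29 to 0.12, adjusted p = 0.565).

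Among scaffolds and Ras adaptors, Lcp2 rose. Lcp2 encodes SLP-76, the scaffold that joins SYK to PLC gamma and VAV (ENSMUSG00000002699, GRCm38 chromosome 11, 34046920 to 34092295, plus strand, protein coding). Its level was 229.9, 248.9, 307 and 307 CPM, the mutant libraries being nearly equal and above both WT libraries. It was 1.28-fold higher (log2 fold change 0.36, SE 0.0832, edgeR adjusted p = 0.0296). The call was lost without WT 1 (0.30, adjusted p = 0.268) and without WT 2 (0.42, adjusted p = 0.105), and with library totals alone the value turned to −0.01. Lat2 (NTAL, a membrane scaffold phosphorylated by SYK and LYN) was at 58.3, 62.4, 52.0 and 49.9 CPM, both mutant libraries below both WT libraries (log2 fold change −0.25, 95% interval −0.46 to −0.03, adjusted p = 0.122). Exons of Rfc2 on the opposite strand cover 36.3% of the Lat2 exons, and without a stated strand setting reads of the pair cannot be told apart. Shc1, an adaptor that brings GRB2 to receptors, did not overlap between the groups at 97.9, 93.0, 107 and 115 CPM (log2 fold change 0.22, 95% interval 0.03 to 0.41, adjusted p = 0.120). Grb2, which carries the Ras activator SOS1, was at 247, 251, 239 and 264 CPM (log2 fold change 0.01, 95% interval −0.18 to 0.21, adjusted p = 0.930), and Sos1 itself at 47.9, 44.3, 43.8 and 46.0 CPM (log2 fold change −0.04, 95% interval −0.27 to 0.19, adjusted p = 0.836). Both genes overlapped between genotypes.

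Of the VAV exchange factors, which activate Rac for actin remodelling, 0 of 3 passed in any of the 3 tools, and 1 had an unadjusted p under 0.05. This was Vav1, the form of blood cells, at 372, 359, 300.1 and 313 CPM. Both mutant libraries were lower (log2 fold change −0.25, 95% interval −0.44 to −0.06, adjusted p = 0.0853). Vav1 lies on chromosome 17, as Trem2 does, 8.93 megabases away. Sos1 is on the same chromosome, 32.0 megabases from Trem2, and overlapped between the genotypes (log2 fold change −0.04). Adgre1, given above among the macrophage markers, is also on chromosome 17. It starts at 57358691, while Vav1 ends at 57328031, and was lower in both mutant libraries without passing (log2 fold change −0.20). Any part of position in these values was not tested. Vav3 was at 73.6, 77.4, 76.8 and 90.7 CPM, highest in Trem2 mutant 3 (log2 fold change 0.15, 95% interval −0.09 to 0.39, adjusted p = 0.361). Vav2 was scarce, at 8.74 to 9.41 CPM in the 4 libraries (log2 fold change −0.05, 95% interval −0.47 to 0.37, adjusted p = 0.879). Within each library, Vav1 took 88.1% and 87.2% of the family's length-scaled reads in WT 1 and WT 2, and 85.3% and 83.8% in Trem2 mutant 1 and 3. Vav3 took 10.7% and 11.6% in WT and 13.4% and 14.9% in the mutant libraries. These shares do not depend on scaling between libraries. The genotypes did not overlap here, nor in any other family read this way except Cbl with Cblb, so the separation is not particular to VAV. With 2 libraries against 2, an exact permutation test cannot go below p = 0.333, so the shares were not tested.

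PLC gamma and PKC delta gave 0 calls among 3 genes in each of the 3 tools, and 0 had an unadjusted p under 0.05. Plcg2, the phospholipase of myeloid cells that splits PIP2 into a calcium signal and diacylglycerol, was at 340.1, 319.6, 365 and 369 CPM. Its mutant libraries lay above WT (log2 fold change 0.16, 95% interval −0.04 to 0.35, adjusted p = 0.252). Plcg1, the form best known from T cells, had only 77 to 89 reads per library (log2 fold change −0.01, 95% interval −0.44 to 0.42, adjusted p = 0.985). Plcg2 made up 98.5% and 98.7% of the pair's length-scaled reads on average in WT and mutant libraries. Prkcd, a kinase activated by diacylglycerol that phosphorylates CARD9, was at 580.4, 574, 579.8 and 556 CPM (log2 fold change −0.02, 95% interval −0.22 to 0.18, adjusted p = 0.891).

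In the PI3K branch 0 of 8 genes passed in any of the 3 tools, and 3 had an unadjusted p under 0.05. PI3K makes the lipid PIP3, and its catalytic subunits come in 4 class I forms. Pik3cg (p110 gamma, driven by chemoattractant receptors) was at 270.2, 246, 314 and 308 CPM, without overlap (log2 fold change 0.27, 95% interval 0.07 to 0.47, adjusted p = 0.0799). Pik3cd (p110 delta, the leukocyte form) was at 318, 312, 353 and 328 CPM (log2 fold change 0.11, 95% interval −0.08 to 0.31, adjusted p = 0.413). Both were higher in each mutant library than in either WT library. The values of the ubiquitous forms had opposite signs, and neither passed: Pik3cb at 112, 107, 126 and 125 CPM (log2 fold change 0.19, 95% interval 0.01 to 0.37, adjusted p = 0.141) and Pik3ca at 85.1, 85.4, 80.5 and 81.9 CPM (log2 fold change −0.07, 95% interval −0.25 to 0.11, adjusted p = 0.592). Per length, Pik3cd was the main catalytic form in all 4 libraries, with 47.7% ± 0.774 of the length-scaled reads for WT and 46.2% ± 1.08 for the mutant (± SD, n = 2). Pik3cg followed with 29.0% ± 1.04 and 31.4% ± 0.455, Pik3cb with 14.4% ± 0.0198 and 14.8% ± 0.321, and Pik3ca with 8.88% ± 0.284 and 7.60% ± 0.300.

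Of the 4 genes around p110, 0 passed in any of the 3 tools, and 1 had an unadjusted p under 0.05. Pik3r1 (p85 alpha, the subunit that binds phosphotyrosine) was at 114, 120.0, 144 and 136 CPM, above WT in both mutant libraries (log2 fold change 0.26, 95% interval 0.08 to 0.45, adjusted p = 0.0688). Leaving out Trem2 mutant 3 brought Pik3r1 (0.32, adjusted p = 0.0211) and Pik3cg (0.30, adjusted p = 0.0427) past the threshold. Pik3r5 (p101, the partner of p110 gamma) was at 153, 151, 146 and 139 CPM (log2 fold change −0.10, 95% interval −0.27 to 0.08, adjusted p = 0.444). Pik3ap1 (BCAP, an adaptor that draws PI3K to the membrane) was at 365, 420.5, 417 and 375 CPM, with WT 1 lowest and WT 2 highest (log2 fold change 0.01, 95% interval −0.23 to 0.25, adjusted p = 0.950). Akt1, the kinase recruited by PIP3, was at 318, 299.7, 313 and 262 CPM, and its low value was that of Trem2 mutant 3 (log2 fold change −0.10, 95% interval −0.34 to 0.14, adjusted p = 0.549).

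**Figure D3:**
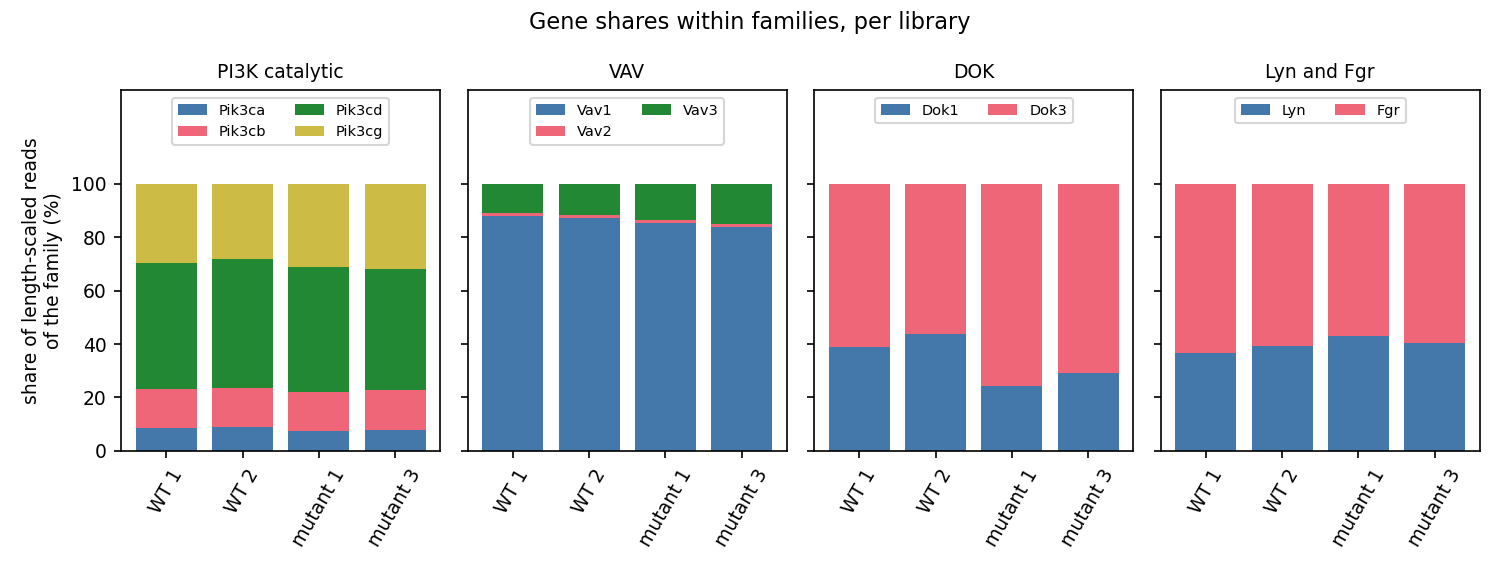
Share of each gene in the length-scaled reads of its family (y axis, percent) in the 4 libraries (x axis) for the class I PI3K catalytic subunits, the VAV factors, Dok1 with Dok3, and Lyn with Fgr. The Vav1 share goes from 88.1% and 87.2% to 85.3% and 83.8%, and the Dok1 share from 39.0% and 43.7% to 24.4% and 29.3%.

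The brakes of the chain held the gene with the largest fold change among the 36. Dok1 encodes an adaptor that recruits RasGAP and restrains Ras signalling (ENSMUSG00000068335, GRCm38 chromosome 6, 83030934 to 83033471, minus strand, protein coding). Its level was 39.8, 40.1, 25.9 and 23.2 CPM, and the WT libraries both had 366 reads and the mutant libraries both 216. The groups did not overlap, but 2 libraries each, with equal read counts, give a poor measure of their spread. Dok1 was 1.63-fold lower (log2 fold change −0.70, SE 0.110, edgeR adjusted p = 0.00652). The value ran from −1.08 to −0.61 over 14 alternatives. Its call was lost without WT 1 (−0.71, adjusted p = 0.0545). Dok3, a related adaptor that binds SHIP1 and GRB2, was at 77.6, 64.3, 99.8 and 69.6 CPM. Its groups overlapped, as Trem2 mutant 1 was 1.43 times Trem2 mutant 3, the widest gap inside a genotype among the 36 genes (log2 fold change 0.25, 95% interval −0.14 to 0.65, adjusted p = 0.353). Without Trem2 mutant 3, Dok3 passed (0.51, adjusted p = 0.00380), and without Trem2 mutant 1 its value was −0.016 (adjusted p = 0.951), so its direction rests on that library. Of the length-scaled reads of the pair, Dok1 took 41.3% ± 3.33 for WT and 26.8% ± 3.48 for the mutant (± SD, n = 2).

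Of the other 5 brakes 0 passed in any of the 3 tools, and 2 had an unadjusted p under 0.05. Ptpn6 (SHP-1, the phosphatase of inhibitory receptors) was at 439, 438, 517 and 502 CPM, above WT in both mutant libraries (log2 fold change 0.22, 95% interval 0.02 to 0.41, adjusted p = 0.130). Inpp5d (SHIP1, which removes PIP3) was at 355, 396, 419 and 408 CPM (log2 fold change 0.14, 95% interval −0.07 to 0.35, adjusted p = 0.340). Cbl, a ubiquitin ligase that marks activated SYK and receptors for decay, was at 566, 559, 649.5 and 649 CPM (log2 fold change 0.21, 95% interval 0.01 to 0.41, adjusted p = 0.155). None of these 3 overlapped between the genotypes, and each was higher in the mutant libraries. Ptpn11 (SHP-2, listed with the phosphatases although it mostly promotes Ras signalling) was at 107, 104, 111 and 117 CPM (log2 fold change 0.11, 95% interval −0.07 to 0.29, adjusted p = 0.378), and Cblb at 13.6, 12.6, 15.1 and 13.4 CPM (log2 fold change 0.12, 95% interval −0.24 to 0.49, adjusted p = 0.644). Cbl made up 97.3% and 97.5% of the length-scaled reads of Cbl with Cblb, and Ptpn6 91.7% and 92.3% of those of Ptpn6 with Ptpn11, in WT and mutant libraries on average.

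**Figure D4:**
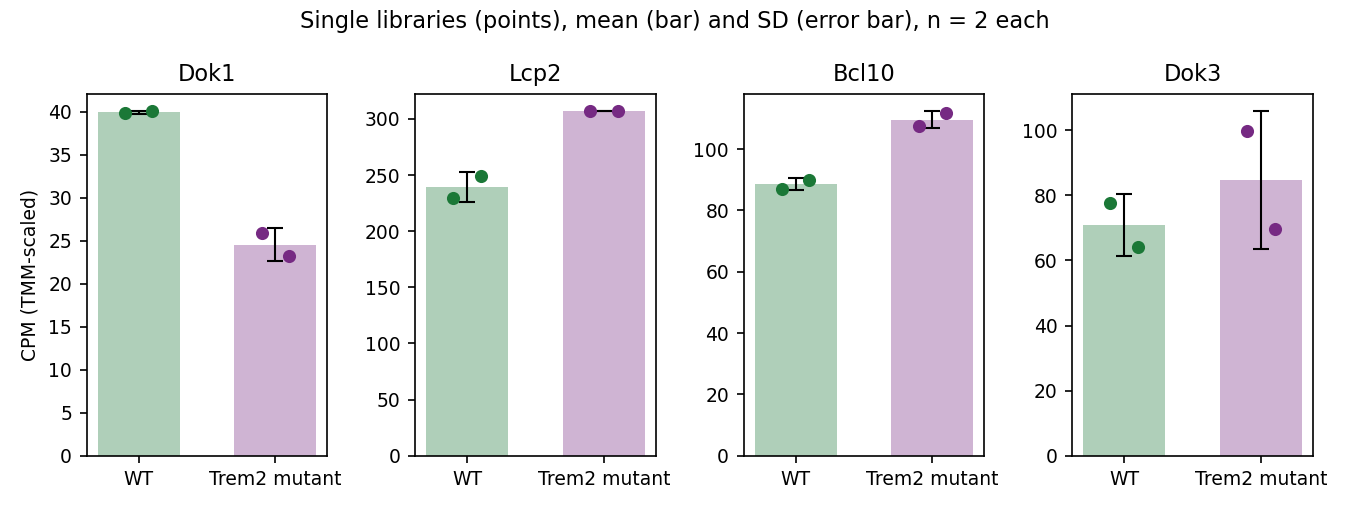
TMM-scaled CPM (y axis) of Dok1, Lcp2, Bcl10 and Dok3 in the WT and Trem2 mutant libraries (x axis), with points for single libraries, bars for means and error bars for the SD of 2 libraries. The groups are apart for Dok1, Lcp2 and Bcl10, and overlap for Dok3.

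In the CARD9 branch, which links SYK to NF-kB, Bcl10 rose. Bcl10 encodes the bridge between CARD9 and MALT1 (ENSMUSG00000028191, GRCm38 chromosome 3, 145922804 to 145934356, plus strand, protein coding). It was at 87.1, 89.9, 108 and 112 CPM, both mutant libraries lying above both WT libraries. It was 1.24-fold higher (log2 fold change 0.31, SE 0.0772, edgeR adjusted p = 0.0382). The call was lost without WT 1 (0.29, adjusted p = 0.293), without WT 2 (0.33, adjusted p = 0.182), with DESeq2 (0.32, adjusted p = 0.166) and with upper-quartile scaling (0.27, adjusted p = 0.0582), and with library totals alone the value turned to −0.06. Card9, the entry adaptor of the branch, was at 63.4, 61.3, 68.2 and 67.3 CPM (log2 fold change 0.12, 95% interval −0.08 to 0.31, adjusted p = 0.385). Malt1, its protease, was at 154, 182, 162 and 164 CPM, with the WT libraries on either side of both mutant libraries (log2 fold change −0.04, 95% interval −0.27 to 0.19, adjusted p = 0.819).

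Across the chain, groups did not overlap for 23 of the 36 genes, 17 with the mutant above and 6 with the mutant below. Over all genes tested the groups did not overlap for 60.5%, with the mutant above for 28.9% and below for 31.7%. Of the 17 genes above 15 did not pass, and of the 6 below 5 did not. The libraries of a genotype were close: the median gap between them was 1.05-fold in WT and 1.04-fold in the mutant. Genes in the same range of level, not matched in level within it, gave 1.07-fold and 1.097-fold.

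The order of transcript levels along the chain was nearly the same in the 4 libraries. Per kilobase of exon, Ptpn6 was first in each (156 to 184 CPM per kb) and Fgr second (138 to 149 CPM per kb). Prkcd and Vav1 held the third and the fourth place in both WT libraries, and Syk and Lyn those places in both mutant libraries. At the low end were Sos1 (4.14 to 4.52 CPM per kb) and then Vav2, Cblb and Plcg1, all between 1.101 and 1.44 CPM per kb and too close for a firm order among the 3. Each role's share of the summed per-length level was read within libraries. Proximal kinases took 24.0% ± 0.644 for WT and 24.8% ± 0.623 for the mutant, phosphatases and brakes 19.1% ± 0.168 and 19.98% ± 0.589, and VAV factors 6.83% ± 0.163 and 5.59% ± 0.301 (± SD, n = 2).

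**Figure D5:**
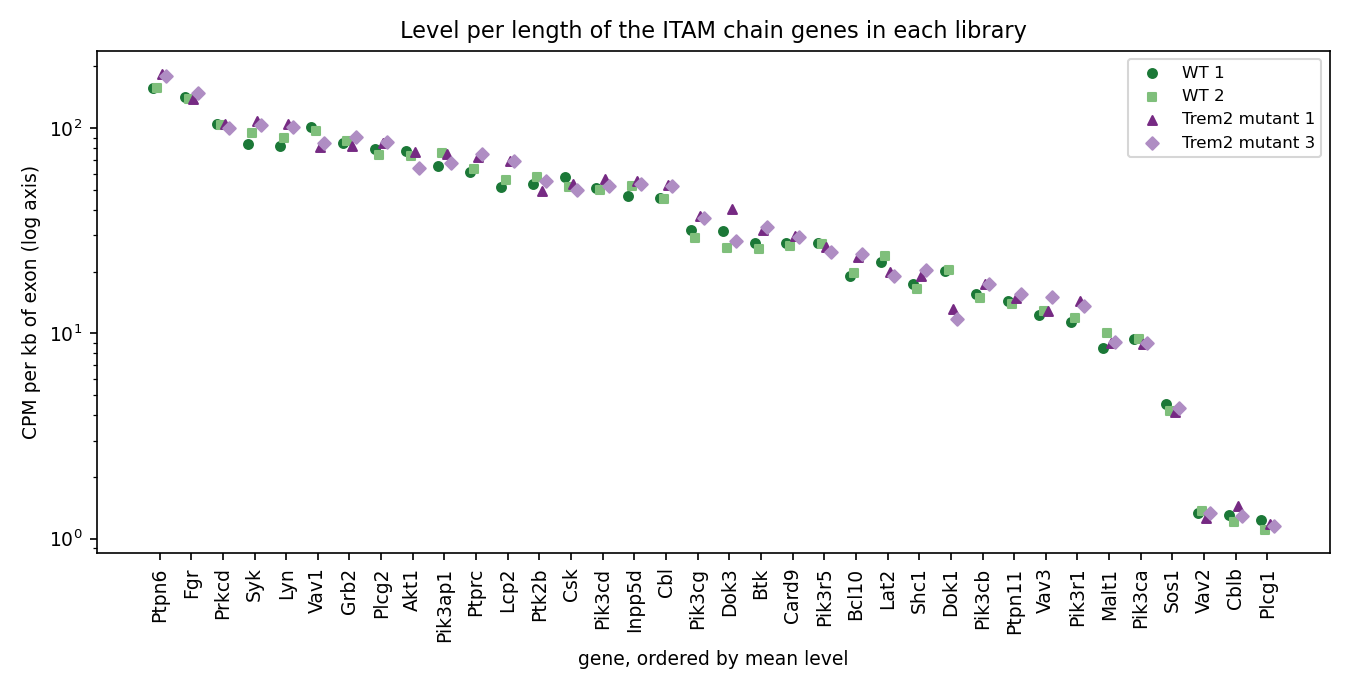
Level of each gene per kilobase of exon (y axis, log scale, CPM per kb) in the 4 libraries (symbols), genes ordered by mean level (x axis). Ptpn6 and Fgr are highest in each library, and Vav2, Cblb and Plcg1 lie between 1.101 and 1.44.

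Other genes of the pathway, 78 that are not among the 36, were read from the same fit. Of these 15 rose and 0 fell (19.2% higher, beside 9.55% of all genes), with 3 lower at an unadjusted p under 0.05 and 0 lower by DESeq2 or limma-voom. The number higher fell without WT 1 and without WT 2, as it did over all genes, and these fits leave 1 WT library. With library totals alone 3 of the 78 were higher and 15 lower, beside 4.56% and 30.7% of all genes. The median log2 fold change of the pathway genes was 0.18 in the main fit, 0.15 without WT 1 and 0.19 without WT 2. The rises were larger than any in the chain for a few genes. Bmx, a Tec family kinase like Btk, was at 6.53, 8.21, 27.8 and 22.4 CPM (3.39-fold, adjusted p = 0.00124). Prkcb (PKC beta) was at 46.6, 48.7, 118 and 108 CPM (2.37-fold, adjusted p = 0.000229). Rasgrp2, a calcium-sensitive Rap activator, rose 2.53-fold, Rac2, the Rac of granulocytes and other blood cells, 1.68-fold, and Pag1, a membrane adaptor that anchors CSK, 1.62-fold. Neutrophil markers rose in the same libraries, as given above.

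Smaller rises were found for Ptpn1 (1.38-fold), a tyrosine phosphatase. Stim1 (1.33-fold), the sensor of calcium stores, Sla (1.36-fold), an adaptor that lowers receptor signalling, and Nckap1l (1.31-fold), a subunit of the actin-regulating WAVE complex, also rose. These 4 calls were each lost without WT 1 and without WT 2. The rises of Nck1, Map2k1 and Ptpn12 fall outside the rule for named genes and were named after their values were seen. By role, 5 of 13 other brakes rose, 3 of 10 Ras and MAP kinase genes, 2 of 9 Rac and actin genes, 2 of 12 calcium and NFAT genes, 2 of 6 other kinases, 1 of 10 other scaffolds, and 0 of 3 adaptors, 0 of 6 other PI3K and AKT genes and 0 of 9 CARD9 partners. Whether Bmx differs in response from its relative Btk was not tested.

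Promoter sequences of the chain were read from the RefSeq table for GRCm38.p6, which held 31 of the 36 genes with 44 promoters. Dok1, Lat2, Lyn, Malt1 and Ptk2b had no entry. In each, the 250 bases before the annotated start were searched for GAGGAA, the core of sites bound by PU.1, on both strands (TTCCTC on the other). It was found for 12 of the 31 genes (38.7%), beside 25.9% of all 27025 genes of the table, and in 13 of 44 promoters (29.5%), beside 23.3% of 32851. The 2 called genes with an entry had no match in this window. They are shown because they rose, in lower case, 5′ to 3′ on the plus strand:
Lcp2, chr11:34046678-34046927: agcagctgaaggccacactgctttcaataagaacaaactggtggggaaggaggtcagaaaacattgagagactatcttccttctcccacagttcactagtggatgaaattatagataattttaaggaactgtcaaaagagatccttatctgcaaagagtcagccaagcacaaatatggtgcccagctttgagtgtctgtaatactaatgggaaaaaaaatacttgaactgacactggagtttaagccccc
Bcl10, chr3:145924012-145924261: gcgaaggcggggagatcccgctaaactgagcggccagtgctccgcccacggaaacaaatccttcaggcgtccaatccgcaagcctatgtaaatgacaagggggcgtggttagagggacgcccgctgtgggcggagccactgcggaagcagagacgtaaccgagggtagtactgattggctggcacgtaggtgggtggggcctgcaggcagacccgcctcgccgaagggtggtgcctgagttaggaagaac

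In 4 of the 44 promoters (9.09%) a match ended within 20 bases of the start, beside 2.64% of all promoters in the table, a limit chosen after the positions were seen. The last 50 bases before the start of these 4 are shown to compare the place of the match, in capitals, in the sense of the gene:
Vav1, chr17:57279050-57279099, plus strand: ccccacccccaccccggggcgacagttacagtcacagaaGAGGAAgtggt
Pik3ap1, chr19:41385103-41385152, minus strand: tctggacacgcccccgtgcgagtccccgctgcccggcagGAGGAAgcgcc
Syk (an alternative start), chr13:52596832-52596881, plus strand: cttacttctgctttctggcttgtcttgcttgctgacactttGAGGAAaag
Inpp5d, chr1:87620262-87620311, plus strand: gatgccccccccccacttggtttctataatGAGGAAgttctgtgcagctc
The match ended 5 bases before the start in Vav1 and Pik3ap1, 3 in Syk and 14 in Inpp5d, on the coding strand in each. None of the 4 genes passed the test between genotypes, with log2 fold changes of −0.25, 0.01, 0.25 and 0.14. A match describes these letters only.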

How the data were processed

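The authors deposited raw counts of reads per Ensembl gene for 4 libraries, as unnormalized whole numbers. The submitters' processing notes name GRCm38 (mm10) with STAR 2.5.2a, FastQC and DESeq2. The sources used here do not name the read counter, any use of strand or the gene annotation. RNA was sequenced after rRNA removal, per the labels' protocols. No gene in the table had fewer than 11 reads in all. Of the IDs, 17422 matched GENCODE M21, which gave names, positions and merged exon lengths, and 54 did not. The mutant column numbered 3 matches no labelled replicate number and was used as a mutant library without a number.

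The tests used edgeR 4.0.16 in R 4.3.3: filterByExpr (14239 genes), TMM, the quasi-likelihood test in its default form, two-sided, genotype as the only term, Benjamini-Hochberg adjustment over all genes at 0.05. Intervals (95%) use the 2 residual and 5.71 prior degrees of freedom, so most of the precision is shared across genes. Levels per length are TMM-scaled CPM per kilobase of merged exons. Library pairs, scaled by totals alone, differed by more than counting noise and were counted separately. The median squared difference was 2.28 times noise in WT and 10.6 in mutant libraries. No TMM correction was used there, so the unequal Gm42418 share of Trem2 mutant 1 and 3 (13.9% and 0.418% of reads) enters the second value. Alternatives were 3 other scalings, 2 other filters, DESeq2 1.42.0, limma-voom (limma 3.58.1), the bias-adjusted form, leaving out 4428 noncoding and mitochondrial genes, and leaving out each library. The edgeR test was tried on simulated data with changes of 2-fold or more, so it was not tried at the smaller changes seen in the chain. Members, lists and tests were chosen with earlier results of these data known. Named were all 36 members, Trem2, 3 adaptors, up to 12 called pathway genes of lowest p, the 2 most abundant markers per list and the gate genes; a few that this rule names are not reported here, but stay in every fit and count. The planned comparison of protein sequences was not done.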

Additional observations from a re-analysis of the deposited data

How the results depend on the processing

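No paired analysis was possible because the columns of the 2 genotypes share only the number 1. Counts of all genes called higher and lower were 1360 and 513, and 489 to 2090 and 92 to 912 with 1 library left out. The chain had 2 higher and 1 lower, and 0 to 6 higher and 0 to 1 lower with 1 library left out; without WT 1 none of the 36 passed. The pathway genes had 15 higher and 0 lower, and 5 to 22 higher and 0 to 2 lower. The chain's median of 0.11 ranged from 0.10 to 0.13. With library totals alone, all genes gave 650 higher and 4365 lower, the chain 0 and 9 with a median of −0.26, and the pathway 3 and 15. Lcp2 (−0.013) and Bcl10 (−0.062) then changed sign. Without Gm42418 as well, an alternative added after seeing the data, all genes gave 830 and 3916, the chain 0 and 10 with a median of −0.16, and the pathway 5 and 18. Under both, the median of all genes fell, so these calls are relative to another zero. Upper-quartile scaling gave 1 chain gene higher, 1 pathway gene lower and a chain median of 0.079. RLE scaling and DESeq2 gave chain medians of 0.13, and DESeq2 called 1 chain gene higher and 198 genes lower in all. For those the cause was not tested. The bias-adjusted form, both other filters, limma-voom and the table without noncoding genes changed no call in the chain. Genes under 100 reads per library (Vav2, Plcg1) had standard errors of 0.181 and 0.185, so changes of that size were not detectable there. Dok3 and Cblb came next, with 0.169 and 0.157. Small changes could be missed in the other genes too: Btk, at 0.28 with a standard error of 0.0810, did not pass.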

Other observations

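Ratios of chain partners within a library, per kilobase of exon, do not depend on scaling between libraries and are given as values, without a test. SLP-76 transcript (Lcp2) relative to NTAL transcript (Lat2), 2 scaffolds used side by side in myeloid cells, averaged 2.33 ± 0.0197 for WT and 3.55 ± 0.101 for the mutant (± SD, n = 2). Bcl10 relative to Malt1 was 2.10 ± 0.203 and 2.66 ± 0.0571, and Bcl10 relative to Card9 0.713 ± 0.0327 and 0.813 ± 0.0290. Ptprc relative to Csk, which act on Src kinases in opposite ways, was 1.14 ± 0.125 and 1.42 ± 0.0915. Lyn relative to Csk was 1.58 ± 0.225 and 1.99 ± 0.0398. In each of these ratios both mutant libraries lay above both WT libraries. Syk relative to Ptpn6, the main kinase against the main phosphatase, overlapped between genotypes at 0.571 ± 0.0510 and 0.583 ± 0.00468. Bmx relative to Btk went from 0.0895 ± 0.0184 to 0.251 ± 0.0453. The pairs were chosen after the values of single genes had been seen.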
